A study of Mus musculus with 24 samples.

Results

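Axon guidance genes are the genes for semaphorins and their plexin and neuropilin receptors, ephrins and their Eph receptors, and Slits and their Robo receptors. In the deposited values, 60 of 56941 genes carry a symbol of these families and were taken as members by symbol alone, without regard to their level. Of these, 46 had enough reads to be tested, 11 had some reads but fell under the filter on low counts, and 3 (Epha6, Plxnc1, and Robo4) had no count in any library. RNA was sequenced from muscle tissues grown from C2C12, an established mouse myoblast line, which in every condition carried the blue light-gated channel ChR2 tagged with tdTomato (genotype ChR2::tdTomato). The tissues were differentiated as monolayers on grooved fibrin gels. They were either left unstimulated (Control) or given pulses of blue light at 1, 4, or 10 Hz for 60 min per day. Each condition had 6 libraries from biological replicates. The controls were given no pulses, so light and the contraction it triggers cannot be told apart here. The tissues also twitch on their own without light, so the control is unstimulated but not at rest. The promoter that drives ChR2 and the clonality of the line were not stated in the sources used here.

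Semaphorins are secreted or membrane-anchored ligands that act through plexins, and the secreted class 3 members mostly need a neuropilin as co-receptor. Ephrins are held on the cell surface by a lipid anchor (A type) or a transmembrane segment (B type), bind Eph receptor tyrosine kinases on neighbouring cells, and can themselves signal back into the cell that carries them. Slits are secreted ligands of Robo receptors. Best known for steering growing axons, all of these families also act in other tissues, and in muscle they are known for the placing of motor axons and muscle precursors and for contact between cells.

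The 24 libraries held 8052369 to 18159144 estimated counts each. The 8 skeletal muscle markers were all present, with a summed level of 10998 to 18224 TPM (a level corrected for transcript length). The label calls the cells myoblasts, whereas markers of differentiated muscle such as Acta1, the skeletal muscle actin, were at 4611 to 8515 TPM. Of the 8, Myog, a transcription factor of muscle differentiation, moved with the stimulated groups, from a mean of 648 TPM in the controls to 221 at 1 Hz and 188 at 4 Hz, with 555 at 10 Hz. Its log2 fold changes of counts were -1.34 ± 0.073 and -1.47 ± 0.073 at the lower frequencies (adjusted p = 1.2e-12 and 1.5e-13). Mylpf, a myosin light chain, was higher at 4 Hz (0.57, adjusted p = 0.0075), and the other 6 did not pass at 1 or 4 Hz. The part of either gene in the changes of guidance genes was not tested. Of the 6 neuronal markers only Stmn2 reached 1 TPM in any library, and of the 6 endothelial markers none did. Summed over each list, neuronal markers stood at 43.4 to 74.1 TPM, glial markers at 0.892 to 2.23 TPM, endothelial markers at 0.0381 to 1.21 TPM, and leukocyte markers, nearly all of it Cd68, at 55.7 to 103 TPM. On the first principal component of the 500 most variable genes (21.7% of their variance), 5 of the 6 libraries at 1 Hz scored between 7.76 and 16.3 and every library at 4 Hz scored 7.58 or more. The control and 10 Hz libraries scored between -19.6 and -0.495, and 1 Hz replicate 5 lay among them at -4.92.

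Most of these families were expressed in unstimulated muscle. In the controls, 38 of the 60 members had a mean of at least 1 TPM and 18 had at least 10 TPM, as the plot of control levels shows. The receptors stood highest: Plxnb2, the plexin for class 4 semaphorins, at 88.1 ± 4.96 TPM (SD, n = 6) and Epha2, a receptor for ephrin-A ligands, at 75.3 ± 11.1 TPM. Plxna1 followed at 32.6 ± 5.32 TPM. Among the ligands, Sema7a, the only semaphorin with a lipid anchor, was at 31.2 ± 7.57 TPM, and the secreted Sema3b was at 28.4 ± 3.27 TPM. Neither differed from Plxna1 by more than 1 SD. Ephb3 (27.6 ± 1.98 TPM), Plxnd1 (24.6 ± 4.95 TPM), and Efna1 (22.0 ± 3.25 TPM) came next. The Slit and Robo families were near the bottom, with no member above Robo1 at 1.61 ± 0.445 TPM and Slit2 at 1.42 ± 0.363 TPM. Of the 14 Eph receptors, 7 did not reach the test. Plxnc1, the plexin that binds Sema7a, had no count at all, against a level of 31.2 TPM for its ligand.

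**Figure D1:**
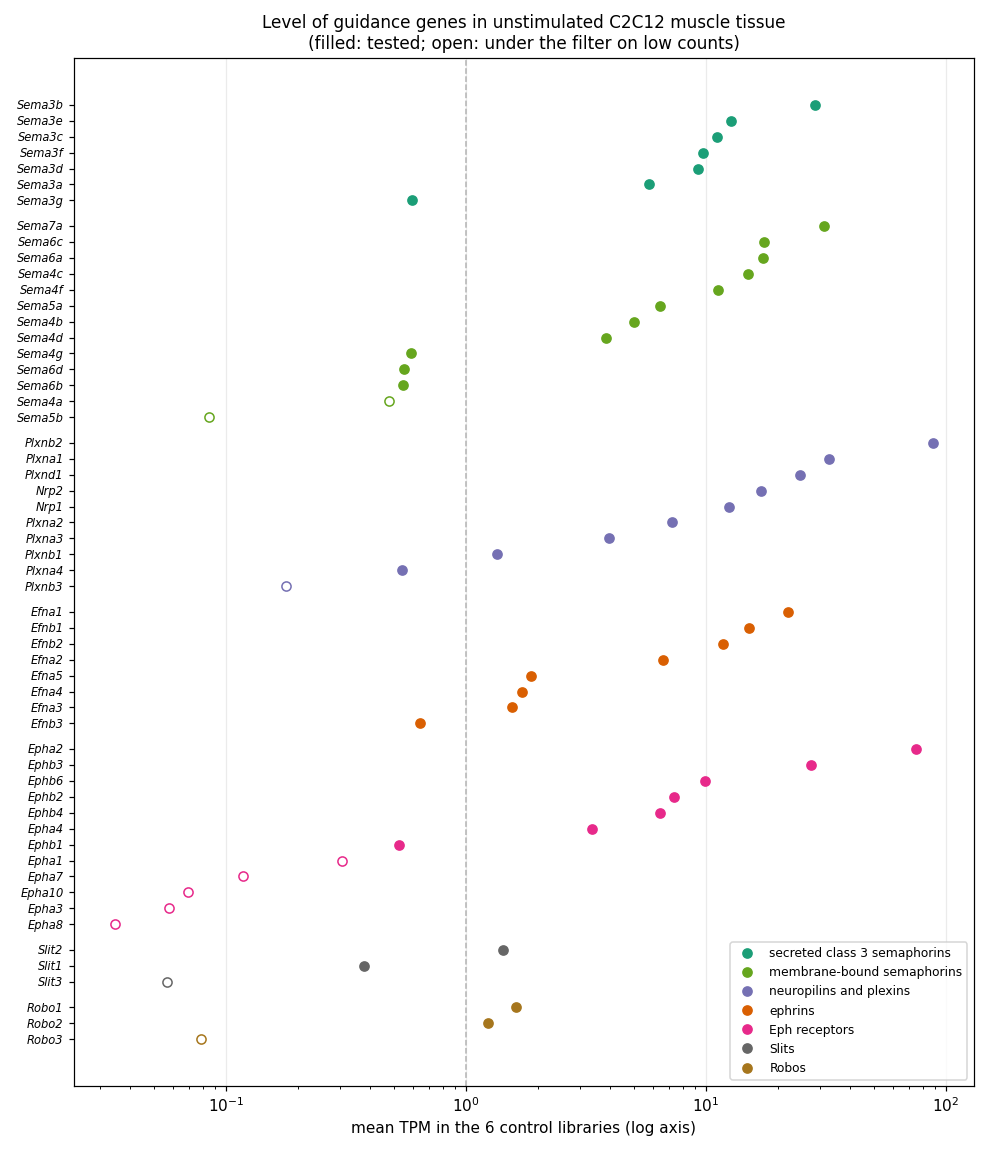
Mean TPM of each guidance gene in the 6 control libraries, on a log axis and grouped by role, with the dashed line at 1 TPM. Filled points passed the filter on low counts and open points did not, and Epha5, Epha6, Plxnc1, and Robo4, which are at 0 in the controls, are not drawn. Plxnb2 and Epha2 stand to the right of the other members, and Slits and Robos lie near or under 1 TPM.

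Stimulation at 1 and 4 Hz changed a large part of the set, mostly downward, while 10 Hz did not. In edgeR's quasi-likelihood test, a gene was called when its p, adjusted by the Benjamini-Hochberg method over all 13315 tested genes, was under 0.05 and its log2 fold change exceeded 0.5 in size. With 1 Hz, 16 of the 46 tested members changed against control, where 14.9% of all tested genes did. Of these, 13 were lower and 3 higher, against 7.74% lower and 7.19% higher among all genes. At 4 Hz, 18 members changed, against 25.1% of all genes, with 12 lower (12.3% of all genes) and 6 higher (12.8% of all genes). In total 21 members changed at 1 or 4 Hz. Of these, 10 were lower at both frequencies and 3 higher at both, 3 passed at 1 Hz alone, and 5 passed at 4 Hz alone. The median log2 fold change of the tested members was -0.18 at 1 Hz and -0.08 at 4 Hz, against 0.04 and 0.06 for all tested genes. At 10 Hz, 0 members changed in edgeR and in DESeq2, 7 had an unadjusted p under 0.05, and 0.0376% of all genes were called.

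**Figure D2:**
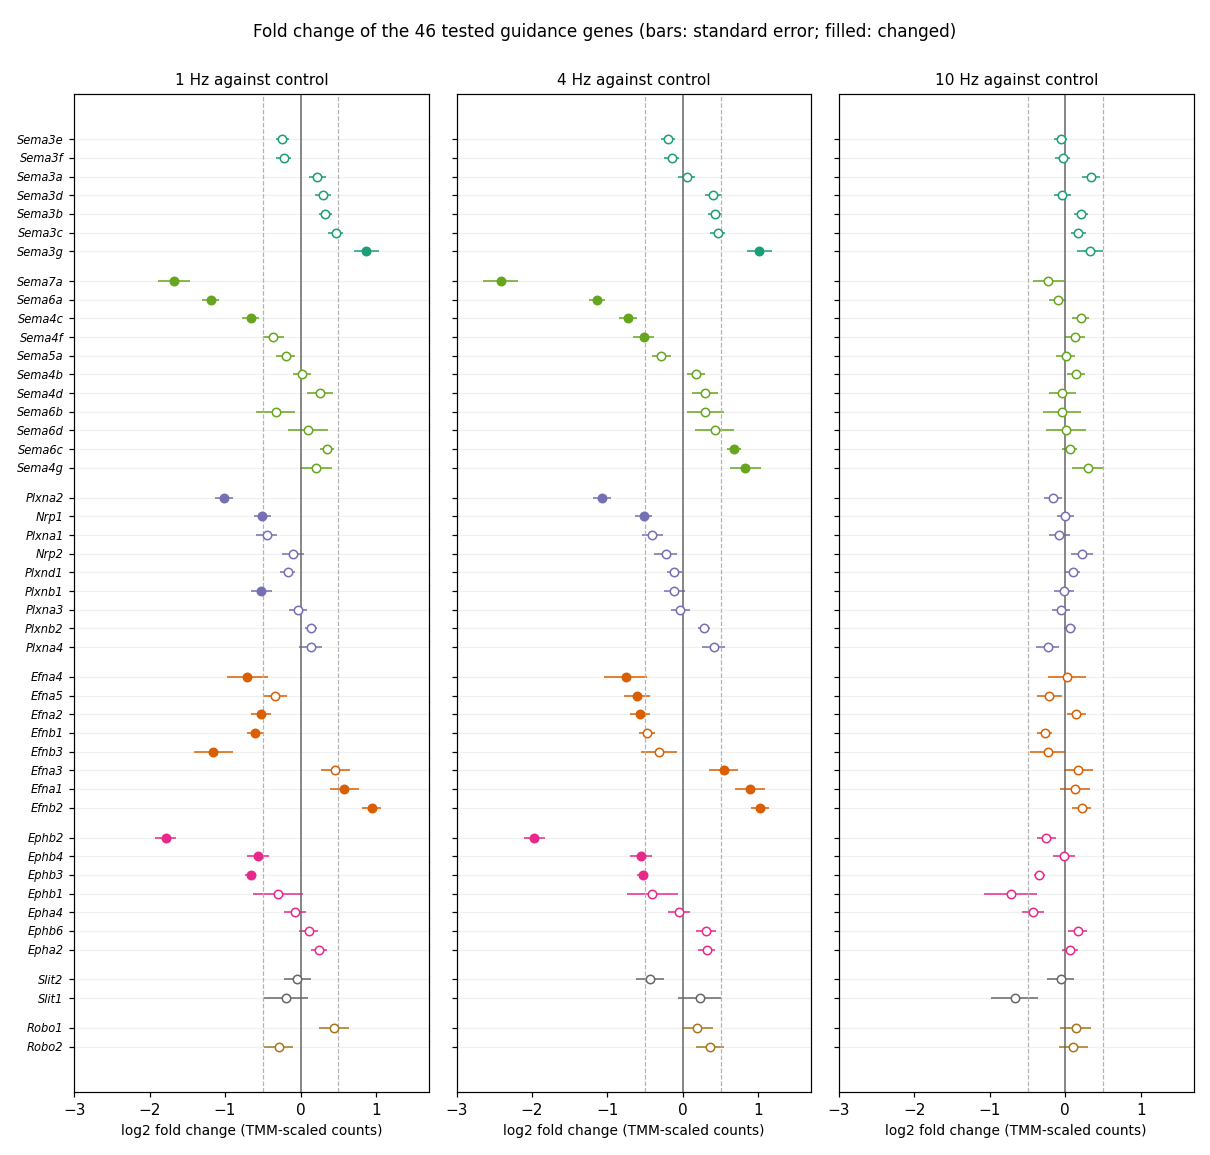
Log2 fold change against control of the 46 tested guidance genes at 1, 4, and 10 Hz, by role and ordered by the value at 4 Hz, with bars for the standard error and dashed lines at -0.5 and 0.5. Filled points were called changed. The leftmost points at 1 and 4 Hz are Sema7a (-1.68 and -2.42) and Ephb2 (-1.79 and -1.97), and no point is filled at 10 Hz.

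The libraries can also be read without a model. At 1 Hz, all 6 libraries lay above every control for 4 tested members and below every control for 6, which makes 10 of 46 against 14.1% of all tested genes. At 4 Hz these numbers were 6 above and 9 below, or 15 of 46 against 27.6% of all genes. At 10 Hz only Ephb3 did so, below the controls, against 1.64% of all genes. In bulk tissue, fewer cells of a type and less RNA per cell cannot be told apart.

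Of the 11 tested membrane-bound semaphorins, 3 were lower and 0 higher at 1 Hz (7.74% and 7.19% of all tested genes), and 4 were lower and 2 higher at 4 Hz (12.3% and 12.8%). On counts the medians of the 11 log2 fold changes lay at -0.19 and 0.17, and on log2(TPM + 1) at -0.35 and -0.44 for the 8 that could be tested there. For all tested genes the medians were 0.04 and 0.06 on counts, and -0.14 and -0.21 on log2(TPM + 1). Sema7a (ENSMUSG00000038264, GRCm39 chr9:57847375-57870151, plus strand) signals through integrins and plexin C1. It stood at 44.5 to 81.1 CPM in the controls (counts per 1000000 reads after TMM scaling, median 66.6). It was at 11.4 to 33.3 CPM at 1 Hz (median 18.4), 9.05 to 15.2 CPM at 4 Hz (median 12.1), and 44.1 to 68.1 CPM at 10 Hz (median 55.8). Every library at 1 and 4 Hz lay under every control, and the 10 Hz libraries overlapped the controls. The log2 fold changes were -1.68 ± 0.22 (SE) and -2.42 ± 0.23 at 1 and 4 Hz (adjusted p = 4.1e-06 and 3.0e-08), the latter 5.34-fold lower than control. Sema6a (ENSMUSG00000019647), a transmembrane ligand of plexin A2 and plexin A4, ranged from 53.1 to 75.9 CPM in the controls (median 57.1). It ranged from 20.1 to 31.0 CPM at 1 Hz, from 23.0 to 30.1 CPM at 4 Hz, and from 48.5 to 67.5 CPM at 10 Hz, with medians of 27.6, 27.9, and 56.3. The first 2 frequencies lay wholly under the controls, with -1.19 ± 0.11 and -1.14 ± 0.11 as log2 fold changes (adjusted p = 1.7e-08 and 1.8e-08).

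Sema4c (ENSMUSG00000026121, chr1:36587720-36597963, minus strand), a ligand of plexin B2 that is known from muscle differentiation, went the same way. It was at 27.5 to 37.8 CPM in the controls (median 35.5), 14.5 to 30.0 CPM at 1 Hz (median 21.0), 18.5 to 23.9 CPM at 4 Hz (median 20.3), and 37.2 to 42.2 CPM at 10 Hz (median 40.02). One library at 1 Hz reached into the control range and none at 4 Hz did. The log2 fold changes were -0.66 ± 0.12 and -0.73 ± 0.12 (adjusted p = 9.7e-05 and 1.8e-05). Sema4f was lower at 4 Hz, at -0.52 (adjusted p = 0.0029), and stood at -0.36 at 1 Hz without passing. The value at 4 Hz missed the fold threshold at -0.49 without control replicate 2 or 4 and at -0.47 without 4 Hz replicate 1 or 2, whereas at 1 Hz it passed without 1 Hz replicate 3, at -0.51. Sema6c (ENSMUSG00000038777, chr3:95067726-95084627, plus strand) moved in the opposite direction. It ranged from 23.8 to 32.5 CPM in the controls (median 27.9), 27.0 to 43.9 CPM at 1 Hz (median 35.5), 41.8 to 49.7 CPM at 4 Hz (median 45.3), and 28.0 to 33.9 CPM at 10 Hz (median 28.8). All 6 libraries at 4 Hz were above the controls, at 0.68 ± 0.098 in log2 fold change (adjusted p = 4.1e-06), and the value at 1 Hz was 0.35, under the fold threshold. The scarce Sema4g, at 0.59 TPM in the controls, was also higher at 4 Hz, at 0.83 (adjusted p = 0.0016), with 0.21 at 1 Hz. The other 5 tested members of this group lay between -0.33 and 0.42 at both frequencies and did not pass.

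**Figure D3:**
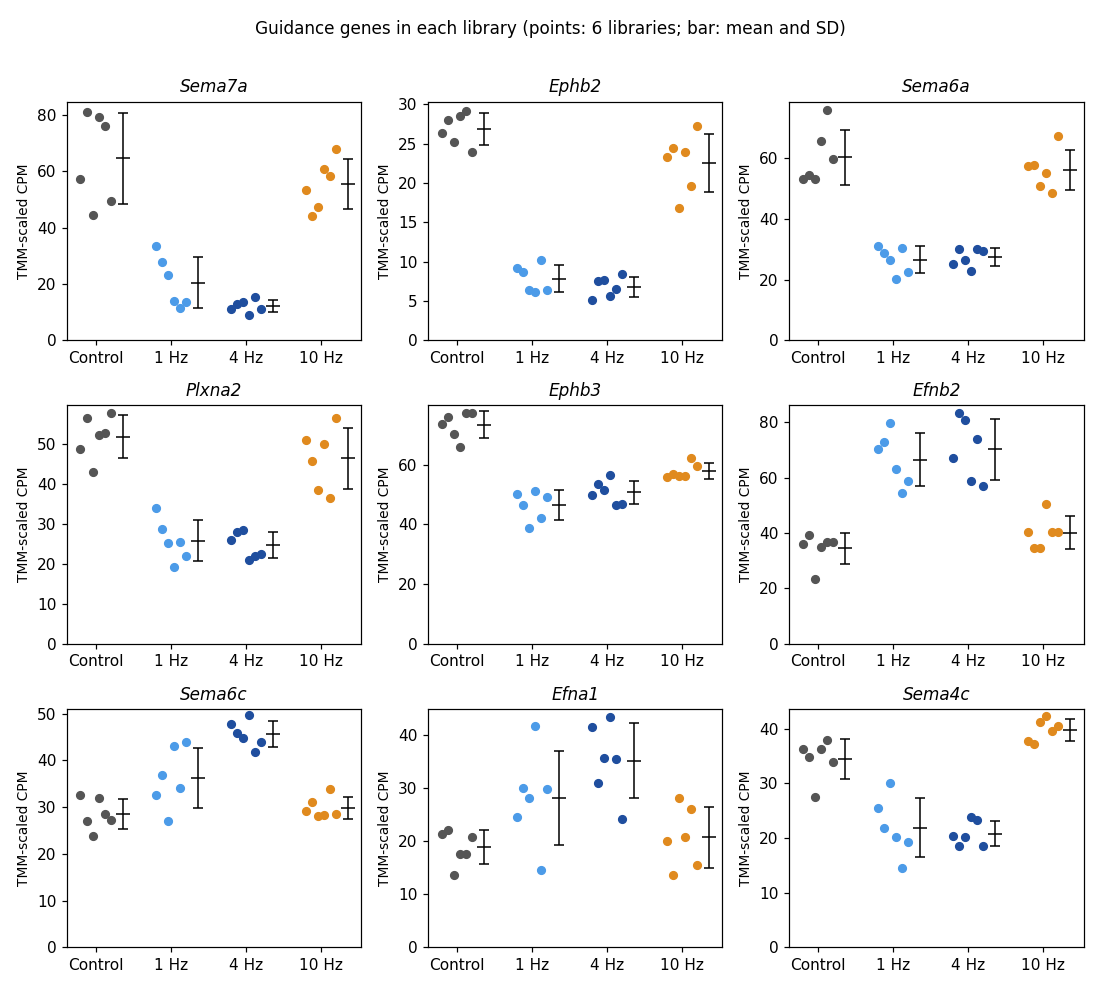
TMM-scaled CPM of 9 guidance genes in each of the 6 libraries per condition, on axes that start at 0, with the mean and SD at the right of each group. For Sema7a, Ephb2, Sema6a, Plxna2, and Ephb3 the 1 and 4 Hz libraries lie under all controls, and for Efnb2 they lie above them, while the 10 Hz libraries overlap the controls except for Ephb3.

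Of the 7 secreted class 3 semaphorins, 1 was higher and 0 lower on counts at each of 1 and 4 Hz. Among all tested genes, 7.19% were higher and 7.74% lower at 1 Hz, and 12.8% and 12.3% at 4 Hz. The median of the 7 lay at 0.30 at 1 Hz and 0.40 at 4 Hz in log2 fold change of counts, but at 0.04 and 0.06 on log2(TPM + 1), where 0 were higher and Sema3e was called lower at 4 Hz (-0.52, adjusted p = 0.0027 by limma). On that TPM scale the median of all tested genes itself lay at -0.14 at 1 Hz and -0.21 at 4 Hz. Taken from that median, Sema3e was at -0.31 and Sema3g at 0.51 at 4 Hz. The member called on counts, Sema3g (ENSMUSG00000021904, chr14:30939808-30952309, plus strand), a ligand that acts through neuropilin 2, was scarce at 0.599 TPM in the controls. It was at 1.28 to 2.22 CPM in the controls (median 1.73), 2.85 to 3.54 CPM at 1 Hz (median 3.20), 2.79 to 4.32 CPM at 4 Hz (median 3.25), and 1.43 to 2.57 CPM at 10 Hz (median 2.48). The 1 and 4 Hz libraries stood clear of the controls, at log2 fold changes of 0.87 ± 0.16 and 1.01 ± 0.17 (adjusted p = 2.1e-04 and 2.1e-05). Sema3b, the most abundant of the group, ranged from 42.3 to 54.4 CPM in the controls (median 48.3), 50.9 to 67.7 CPM at 1 Hz (median 60.9), 53.1 to 75.3 CPM at 4 Hz (median 64.4), and 47.7 to 59.7 CPM at 10 Hz (median 56.6). At 0.33 and 0.42 its log2 fold changes stayed under the threshold, with adjusted p of 0.0047 and 3.2e-04, and the groups overlapped. Sema3a, which muscle precursor cells secrete, was at 0.22 and 0.05 without passing (adjusted p = 0.12 and 0.73).

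Among the receptors of semaphorins, 3 of 9 tested passed at 1 Hz and 2 at 4 Hz, all lower, where 14.9% and 25.1% of all tested genes changed in either direction. On log2(TPM + 1), 4 of 8 were lower at each frequency, with Plxna1 added at both and Nrp2 at 4 Hz (-0.52, adjusted p = 0.041 by limma). There the median of all tested genes lay at -0.14 at 1 Hz and -0.21 at 4 Hz. Taken from that median, Nrp2 was at -0.31 at 4 Hz. Plxna2 (ENSMUSG00000026640, chr1:194300526-194499177, plus strand), the plexin A2 that binds Sema6a, was at 43.1 to 57.8 CPM in the controls (median 52.4). It was at 19.3 to 33.9 CPM at 1 Hz (median 25.4), 21.1 to 28.5 CPM at 4 Hz (median 24.3), and 36.6 to 56.5 CPM at 10 Hz (median 47.8). Sema6a and Plxna2 thus both lay under all controls at 1 and 4 Hz, with log2 fold changes for Plxna2 of -1.02 ± 0.12 and -1.07 ± 0.12 (adjusted p = 6.9e-07 and 1.6e-07). Plxna4, the gene of the other Sema6a receptor named above, was at 0.14 and 0.41. It did not pass (adjusted p = 0.50 and 0.027), the latter value being under the fold threshold. Nrp1 (ENSMUSG00000025810, chr8:129085085-129231082, plus strand), the co-receptor of Sema3a that also binds VEGF, ranged from 21.5 to 30.6 CPM in the controls (median 29.0). It ranged from 15.2 to 24.3 CPM at 1 Hz (median 20.1), 17.0 to 22.7 CPM at 4 Hz (median 19.6), and 22.9 to 34.9 CPM at 10 Hz (median 27.8). Among the controls only replicate 3 reached into the range of the 1 and 4 Hz libraries, and the log2 fold changes were -0.51 ± 0.12 and -0.52 ± 0.12 (adjusted p = 0.0013 and 6.7e-04).

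The fold of Nrp1 was close to the threshold. At 1 Hz it missed it without control replicate 2 (-0.48), 5 (-0.495), or 6 (-0.49) and without 1 Hz replicate 4 (-0.46) or 5 (-0.47), and at 4 Hz without control replicate 2 (-0.495) or 6 (-0.499). Plxnb1, a receptor of Sema4d, was called at 1 Hz at -0.52 (adjusted p = 0.0049) and was at -0.11 at 4 Hz. On TPM its value at 4 Hz was -0.44 with a pseudocount of 1 (adjusted p = 0.011 by limma) and -0.79 with one of 0.1 (adjusted p = 0.018), the latter past the fold threshold. The call at 1 Hz was lost without control replicate 5 (-0.49) or 6 (-0.47) and without 1 Hz replicate 3 (-0.497), 4 (-0.49998), or 5 (-0.49). The abundant Plxnb2 ranged from 273 to 336 CPM in the controls (median 300.2), 284 to 407 CPM at 1 Hz (median 339), 342 to 404 CPM at 4 Hz (median 370.2), and 284 to 344 CPM at 10 Hz (median 319). Its log2 fold change was 0.14 at 1 Hz and 0.28 at 4 Hz (adjusted p = 0.17 and 0.0048), under the fold threshold, though all 6 libraries at 4 Hz lay above the controls.

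Of the 8 tested ephrins, 6 were called at each of 1 and 4 Hz, where 14.9% and 25.1% of all tested genes were, and they moved in both directions. On log2(TPM + 1), 3 of 7 were called at 1 Hz (Efna2, Efnb1, and Efnb2) and 6 of 7 at 4 Hz. Efnb2 (ENSMUSG00000001300, chr8:8667226-8711249, minus strand), the transmembrane ligand of Ephb4, was at 23.5 to 39.3 CPM in the controls (median 36.4). It reached 54.4 to 79.8 CPM at 1 Hz (median 66.7) and 57.2 to 83.3 CPM at 4 Hz (median 70.6), and stood at 34.7 to 50.7 CPM at 10 Hz (median 40.4). Every library at 1 and 4 Hz was above every control, and the log2 fold change was 0.94 ± 0.12 and 1.02 ± 0.12 (adjusted p = 2.1e-06 and 3.2e-07). The other B-type ligands fell. Efnb1 (ENSMUSG00000031217, chrX:98179680-98205454, plus strand) ranged from 24.5 to 35.2 CPM in the controls (median 31.0), 16.4 to 24.3 CPM at 1 Hz (median 19.0), 18.4 to 24.5 CPM at 4 Hz (median 22.5), and 21.6 to 27.6 CPM at 10 Hz (median 25.8). It was called at 1 Hz (-0.60 ± 0.10, adjusted p = 6.0e-05) and sat at the threshold at 4 Hz (-0.48, adjusted p = 4.7e-04), where it passed without control replicate 1 (-0.51) or 3 (-0.55) and without 4 Hz replicate 3 (-0.54) or 4 (-0.52). Efnb3 (ENSMUSG00000003934, chr11:69444918-69451323, minus strand), scarce at 0.64 TPM in the controls, was at 0.754 to 1.78 CPM there (median 1.33), 0.292 to 0.813 CPM at 1 Hz (median 0.557), 0.597 to 1.40 CPM at 4 Hz (median 1.09), and 0.667 to 1.35 CPM at 10 Hz (median 1.07). It was lower at 1 Hz (-1.15 ± 0.26, adjusted p = 0.0011), with 1 library inside the control range, and was at -0.32 at 4 Hz without passing.

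Of the A-type ephrins, 3 neighbours on chromosome 3 went different ways. Efna1 (chr3:89179037-89188449), Efna3 (chr3:89221203-89230272), and Efna4 (chr3:89240695-89245373) lie next to one another, all on the minus strand. Efna1 ranged from 13.7 to 22.2 CPM in the controls (median 19.2), 14.7 to 41.7 CPM at 1 Hz (median 29.0), 24.1 to 43.5 CPM at 4 Hz (median 35.6), and 13.7 to 28.2 CPM at 10 Hz (median 20.4). Its log2 fold changes of 0.58 ± 0.20 and 0.89 ± 0.20 both passed (adjusted p = 0.023 and 6.8e-04), and only the 4 Hz libraries stood clear of the controls. Efna3 was higher at 4 Hz (0.54, adjusted p = 0.022) and at 0.46 without passing at 1 Hz. Efna4 was lower at both, at -0.71 (adjusted p = 0.043) and -0.76 (adjusted p = 0.026). The scarce Efna3 and Efna4 had 1.55 and 1.72 TPM in the controls. Away from this cluster, Efna2 was lower at 1 and 4 Hz (-0.53 and -0.57, adjusted p = 0.0027 and 9.8e-04) and Efna5 at 4 Hz (-0.61, adjusted p = 0.0045, with -0.34 at 1 Hz).

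Several of these A-type calls depended on single libraries. The rise of Efna1 at 1 Hz no longer passed without control replicate 3 or 4 (adjusted p = 0.054 and 0.051) or 1 Hz replicate 4 (adjusted p = 0.10). That of Efna3 at 4 Hz no longer passed without control replicate 4 (adjusted p = 0.058) or without replicate 4 or 5 of its own group (adjusted p = 0.095 and 0.10). Efna4 at 1 Hz lost its call without any of control replicates 1, 4, 5, or 6 or 1 Hz replicates 2, 4, 5, or 6 (adjusted p = 0.057 to 0.10). At 4 Hz the loss came without control replicate 4 or 5 (adjusted p = 0.055 and 0.057) or 4 Hz replicate 2 (adjusted p = 0.073). Efna2 missed the fold threshold at 1 Hz without control replicate 4 (-0.47) or 5 (-0.43) and at 4 Hz without control replicate 5 (-0.496).

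Of the 7 tested Eph receptors, the same 3 were called at 1 and 4 Hz, all of the B type and all lower. Among all tested genes, 7.74% were lower at 1 Hz and 12.3% at 4 Hz. Ephb2 (ENSMUSG00000028664, chr4:136374850-136563351, minus strand), a receptor of all 3 B-type ephrins, had the smallest p of any member. It was at 23.95 to 29.1 CPM in the controls (median 27.2), 6.16 to 10.2 CPM at 1 Hz (median 7.54), 5.09 to 8.36 CPM at 4 Hz (median 7.06), and 16.8 to 27.2 CPM at 10 Hz (median 23.6). The 1 and 4 Hz libraries lay far under the controls, at log2 fold changes of -1.79 ± 0.13 and -1.97 ± 0.14 (adjusted p = 3.3e-10 and 6.4e-11), or 3.46-fold and 3.91-fold lower. On the length-corrected scale Ephb2 went from 7.37 ± 0.759 TPM in the controls to 1.79 ± 0.286 TPM at 4 Hz. Ephb3 (ENSMUSG00000005958, chr16:21023495-21042057, plus strand) was at 65.8 to 77.3 CPM in the controls (median 74.8), 38.6 to 51.3 CPM at 1 Hz (median 47.9), 46.4 to 56.4 CPM at 4 Hz (median 50.6), and 55.9 to 62.2 CPM at 10 Hz (median 56.6). All 3 frequencies lay under all controls, with log2 fold changes of -0.66 ± 0.072, -0.53 ± 0.072, and -0.34 ± 0.072. The last did not pass (adjusted p = 0.083) and was also under the fold threshold, whereas those at 1 and 4 Hz passed (adjusted p = 1.9e-07 and 1.8e-06). Over the alternatives the value at 10 Hz stayed under that threshold, at -0.37 to -0.32. Its adjusted p was under 0.05 in at least 1 of them.

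Ephb4, the receptor of Efnb2, was lower by less, at -0.56 at each of 1 and 4 Hz (adjusted p = 0.0044 and 0.0033), in the opposite direction to its ligand. Without control replicate 3 its value at 1 Hz was -0.495, just inside the fold threshold. The abundant Epha2 ranged from 146 to 222 CPM in the controls (median 191), 195 to 264 CPM at 1 Hz (median 219), 204 to 255 CPM at 4 Hz (median 237), and 158 to 237 CPM at 10 Hz (median 193). It did not pass at either frequency, at 0.25 and 0.31 (adjusted p = 0.069 and 0.017), and its libraries overlapped the controls. Epha4, Ephb1, and Ephb6, the last of which lacks kinase activity, were between -0.40 and 0.30 at 1 and 4 Hz without passing.

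No Slit or Robo was called against control at any frequency with all libraries in the fit. Slit2, the most abundant Slit here, ranged from 5.45 to 9.33 CPM in the controls (median 5.82), 3.41 to 8.76 CPM at 1 Hz (median 6.25), 3.89 to 6.19 CPM at 4 Hz (median 4.67), and 5.23 to 7.01 CPM at 10 Hz (median 6.28). Its log2 fold change at 4 Hz was -0.44 (adjusted p = 0.048), under the fold threshold. Robo1 ranged from 5.15 to 10.1 CPM in the controls (median 7.10), 5.18 to 15.8 CPM at 1 Hz (median 10.6), 6.86 to 10.98 CPM at 4 Hz (median 7.72), and 6.15 to 9.23 CPM at 10 Hz (median 8.003), at 0.44 and 0.19 (adjusted p = 0.087 and 0.45). All 4 groups of both genes overlapped. Both were near the threshold. Slit2 was called at 4 Hz without control replicate 4 or without 4 Hz replicate 3 or 5. Robo1 was called at 1 Hz without control replicate 2 or without 1 Hz replicate 4. Slit3 had at most 5 counts in a library and Robo3 at most 3, so that no change of either was detectable at this depth.

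The frequencies were also compared with each other in the same fit. Between 4 and 1 Hz, 0 of the 46 members differed in edgeR and in DESeq2, as did 0% of all tested genes, and 8 members had an unadjusted p under 0.05. At 4 Hz against 1 Hz, the log2 fold change of Sema7a was -0.74 ± 0.23 and that of Efnb3 0.84 ± 0.28, and neither passed (adjusted p = 0.32 and 0.34). No member called at 1 of these frequencies alone was thus shown to differ between them. At 10 Hz against 1 Hz, 12 members differed, 10 of them higher at 10 Hz, where 10.8% of all genes differed. At 10 Hz against 4 Hz, 17 members differed, 10 higher and 7 lower, where 21.2% of all genes did. Sema7a was 2.19 ± 0.23 higher at 10 Hz than at 4 Hz (adjusted p = 2.2e-07), Ephb2 1.72 ± 0.14 higher (adjusted p = 1.8e-09), Sema6a 1.04 ± 0.11 higher (adjusted p = 1.4e-07), and Plxna2 0.91 ± 0.12 higher (adjusted p = 2.6e-06). Efnb2 was lower at 10 Hz than at 4 Hz (-0.80 ± 0.12, adjusted p = 1.3e-05), and so was Sema6c (-0.62 ± 0.098, adjusted p = 2.3e-05). These comparisons use the same 4 Hz libraries as those against control. Slit1 and Plxna4, which were not called against control, were lower at 10 Hz than at 4 Hz (-0.89 ± 0.31 and -0.64 ± 0.16, adjusted p = 0.022 and 0.0019). Ephb3 was 0.32 higher at 10 Hz than at 1 Hz and 0.19 higher than at 4 Hz (adjusted p = 0.0020 and 0.035), both under the fold threshold.

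The balance of rises and falls moved with the scale. On TPM, which also corrects for the transcripts in use and is not scaled by TMM, the median of all tested genes lay at -0.14 at 1 Hz and -0.21 at 4 Hz, against 0.04 and 0.06 for TMM-scaled counts. Limma on log2(TPM + 1) could test 39 members and called 14 at 1 Hz (1 higher and 13 lower) and 18 at 4 Hz (2 higher and 16 lower), beside 3 higher and 13 lower and 6 higher and 12 lower on counts. For 10 Hz against 1 Hz it gave 11 higher and 0 lower, and against 4 Hz 13 higher and 0 lower. Shares of all genes called on TPM are not given here. The TPM counts, here and for the role groups above, thus do not set members apart from other genes. The falls of Sema7a (-1.81 and -2.45 in log2(TPM + 1)), Ephb2 (-1.52 and -1.59), Sema6a (-1.20 and -1.22), and Plxna2 (-0.92 and -1.13) passed on both scales. Ephb2 fell less on TPM than on counts (-1.79 and -1.97), as the plot of both scales shows. The rise of Efnb2 also passed on TPM at both frequencies (0.64 and 0.60), and that of Efna1 at 4 Hz did (0.54). Efna1 at 1 Hz (0.31), Sema3g (0.29 and 0.30), Sema6c at 4 Hz (0.42), and Efna3 at 4 Hz (0.30) kept their direction but did not pass. With a pseudocount of 0.1 the scarce Sema3g was at 0.60 and 0.61, past the fold threshold but not in adjusted p (0.076 and 0.053). No call of a member changed its direction. Plxna1, at -0.45 and -0.41 on counts without passing, was called lower on TPM at both frequencies (-0.80 and -0.77). Sema4f at 1 Hz and Efnb1, Nrp2, and Sema3e at 4 Hz were also lower on log2(TPM + 1) and not called on counts.

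**Figure D4:**
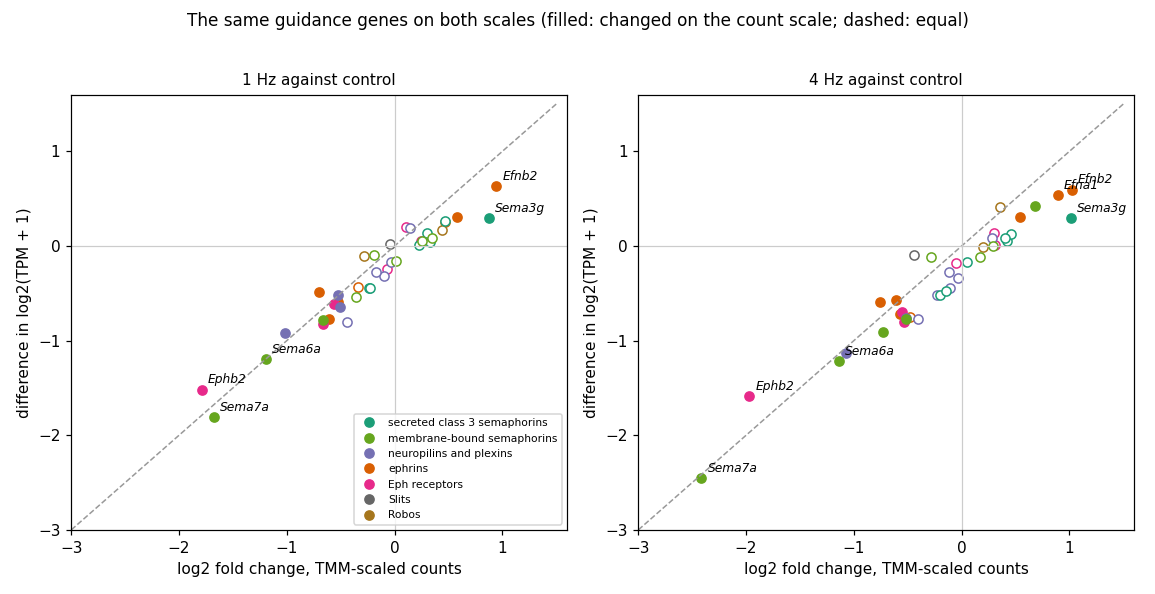
Difference of each tested guidance gene from control at 1 and 4 Hz, as log2 fold change of TMM-scaled counts (horizontal) and as difference in log2(TPM + 1) by limma (vertical), for the members that both could test. Filled points were called changed on counts, and the dashed line marks equal values. Points with a positive count value mostly lie under the line, and Sema7a, Ephb2, Sema6a, and Efnb2 keep their sign on both scales.

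Guidance genes have long transcripts, and in these data length moved with the change. The tested members had a median transcript length of 5071.5 bases, and 30 of the 46 fell in the longest of 3 equal classes of all tested genes (over 4309 bases). Over all genes, 11.03% of that class were lower at 1 Hz and 17.6% at 4 Hz, against 3.61% and 5.18% in the shortest class (up to 2367 bases). Of the 30 members in the longest class, 6 were lower and 2 higher at 1 Hz, and 7 were lower and 3 higher at 4 Hz. Of all genes in that class, 5.28% were higher at 1 Hz and 7.26% at 4 Hz. In the middle class, 5 of 12 members were lower at 1 Hz and 3 at 4 Hz, against 8.60% and 14.1% of its genes. There 0 and 1 were higher, against 5.87% and 9.55%. In the shortest class, 2 of 4 members were lower at each frequency, and 1 and 2 were higher, against 10.4% and 21.7%. The part of length in these changes was not tested. Sema7a, the member with the largest fall at 4 Hz, has a transcript of 3318 bases in the middle class, and Ephb2 has one of 10954 bases. Reads of overlapping genes are a further limit: 13 of the 21 called members, among them Sema7a, Ephb2, Plxna2, Efnb2, and Sema4c, share their locus with a gene annotated on the other strand, as do 33 of the 46 tested, and how the counting used the strand is not stated in the sources used here.

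Promoters of the members were read from GRCm39 as the 300 bases before the start of the GENCODE M39 canonical transcript and searched on both strands for 3 motifs. These were CAGCTG, an E-box form bound by myogenic factors such as MyoD, TGANTCA, the AP-1 site, and TGACGTCA, the CREB site. CAGCTG was present in 13.6% of the promoters of 21770 protein-coding genes, in 7 of the 46 tested members, in 5 of the 15 members that fell, and in 1 of the 6 that rose. These sets differ in base composition. GC content stood at 52.3% for all these promoters, 60.7% for tested members, 62% for those that fell, and 60.2% for those that rose. The part of base composition in the motif shares was not tested. Among the members that changed, it begins, for example, 173 bases before the start in Sema7a, 90 in Ephb3, and 188 in Sema3g. TGANTCA was found in 7.38% of all promoters and 3 of the 46 members, and TGACGTCA in 1.75% and 2 of the 46. The 15 falling members had 1 of each, both in Sema4c, 181 and 50 bases before the start, and the 6 rising ones had none. The window of Sema4c overlaps 19 annotated exons and that of Ephb3 4, so their matches need not lie ahead of all transcripts. The promoters of Sema7a, the member with the largest fall at 4 Hz, of Ephb2, which had the smallest p, and of Sema3g, which rose, are shown, as none of their windows holds an annotated exon. Capitals mark CAGCTG, and Ephb2 has none of the 3 motifs. They are written 5′ to 3′ on the strand of the gene: Sema7a from chr9:57847075-57847374 (plus strand), Ephb2 from chr4:136563352-136563651 (minus strand), and Sema3g from chr14:30939508-30939807 (plus strand).
Sema7a: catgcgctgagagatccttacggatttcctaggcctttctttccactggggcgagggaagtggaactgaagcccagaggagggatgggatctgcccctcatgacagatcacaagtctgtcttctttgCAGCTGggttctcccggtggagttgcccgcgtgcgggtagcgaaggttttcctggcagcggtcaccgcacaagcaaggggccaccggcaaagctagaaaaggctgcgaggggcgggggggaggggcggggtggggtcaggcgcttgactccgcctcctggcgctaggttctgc
Ephb2: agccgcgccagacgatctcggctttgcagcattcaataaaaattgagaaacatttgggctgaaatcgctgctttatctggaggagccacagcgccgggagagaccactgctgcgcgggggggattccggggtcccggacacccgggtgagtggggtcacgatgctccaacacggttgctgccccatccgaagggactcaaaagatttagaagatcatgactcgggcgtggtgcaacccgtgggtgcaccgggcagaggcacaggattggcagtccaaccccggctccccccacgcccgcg
Sema3g: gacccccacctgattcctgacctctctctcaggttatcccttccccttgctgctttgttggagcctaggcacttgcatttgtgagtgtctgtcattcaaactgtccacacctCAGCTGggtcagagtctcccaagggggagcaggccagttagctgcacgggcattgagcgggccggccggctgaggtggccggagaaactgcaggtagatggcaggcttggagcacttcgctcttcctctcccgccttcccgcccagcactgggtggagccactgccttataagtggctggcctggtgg
These matches describe letters in a window and do not show binding.

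Of the proteins that carry guidance signals inside the cell, a list of 42 genes with 38 tested, 6 changed at 1 Hz (2 higher and 4 lower) and 7 at 4 Hz (3 higher and 4 lower). These were 15.8% and 18.4% of those tested, against 14.9% and 25.1% of all genes. Their median log2 fold changes were 0.06 and 0.02, near those of all genes. The smallest p belonged to Tiam1, an activator of Rac that can be recruited by Eph receptors, at -1.42 ± 0.17 at 1 Hz and -1.67 ± 0.18 at 4 Hz (adjusted p = 1.1e-06 and 7.5e-08). Next was Rasa1, the RasGAP that docks on activated Ephb2, at -0.63 ± 0.12 and -1.01 ± 0.12 (adjusted p = 1.6e-04 and 2.4e-07). Among 19 genes of the netrin, RGM, and FLRT families, 10 were tested, of which 2 were lower at 1 Hz and 1 at 4 Hz, or 20% and 10%, against the same 14.9% and 25.1%. They were Unc5c, a repulsive netrin receptor, at -0.86 ± 0.23 and -1.18 ± 0.24 (adjusted p = 0.0047 and 2.3e-04), and Rgma, a ligand of neogenin, at -0.71 ± 0.12 (adjusted p = 5.0e-05), with -0.497 at 4 Hz just under the fold threshold. At 10 Hz, 0 genes of either list passed in edgeR, and 6 and 1 had an unadjusted p under 0.05.

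Leaving out 1 library at a time gave 12 to 17 changed members at 1 Hz and 16 to 20 at 4 Hz. Without 1 Hz replicate 5, the library among the controls on the first component, 14 members changed at 1 Hz: the calls of Efna4, Nrp1, and Plxnb1 were lost and Plxna1 was called. The calls of Sema7a, Ephb2, Sema6a, Plxna2, Efnb2, Sema4c, and Ephb3 at both frequencies held without any single library.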

How the data were processed

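RNA was sequenced from 24 muscle tissues (6 per condition, 50-base paired ends). The authors processed reads with nf-core/rnaseq 3.11.1 on GRCm39 with its Ensembl annotation, and the submitters' processing notes also name STAR, Salmon, and BWA. The deposited estimated counts per gene are those of Salmon, without normalization, and TPM values deposited by the authors sum to 1000000 per library. Depth, from 8052369 to 18159144 estimated counts, limits scarce members, and the biological coefficient of variation was 14.8%. Per the labels, RNA was selected by polyA except in low-input samples, which were ribodepleted, and which samples these were is not said.

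Groups were taken from the sample titles. Counts were rounded, filterByExpr (with a minimum count of 10 and a minimum total of 15) left 13315 genes, and edgeR 4.0.16 (R 4.3.3) was fitted once to all libraries with TMM scaling, a mean per condition, and a robust quasi-likelihood F test. SE is the log2 fold change divided by the root of F. Since the replicates are separate cultures of one line, p-values measure the spread between such cultures. The method was tested on simulated data. Alternatives were RLE or upper-quartile scaling, no or a stricter filter (50 counts in 6 libraries), no fold threshold, only the 2 conditions compared, replicate number as a block, DESeq2 1.42.0 with and without apeglm 1.24.0, limma 3.58.1 on log2(TPM + 1) or log2(TPM + 0.1) for genes at 1 TPM in 6 libraries, and leaving out each library.

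Every member called against control was named. The range and median of CPM were given for the 12 called members with the smallest p and for the member of each role with the highest control TPM. Of the other pathway genes, the 2 with the smallest p at 4 Hz in each list were named. The members and lists were chosen with earlier results of these data known. Positions and lengths came from GENCODE M39.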

Additional observations from a re-analysis of the deposited data

Results flagged for a closer look

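Among 72 groups of 6 libraries of the members given by library, 4 held a single library that stood away from the other 5 by Dixon's test, where chance gives about 1 in 20. They were Efnb2 in control replicate 3 (23.5 CPM, the next library at 34.9), Efnb2 in 10 Hz replicate 4 (50.7 CPM, the next at 40.4), Nrp1 in control replicate 3 (21.5 CPM, the next at 28.6), and Sema3b in 10 Hz replicate 1 (47.7 CPM, the next at 56.2). The calls of Efnb2 at 1 and 4 Hz held without control replicate 3.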

How the results depend on the processing

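Of the 34 calls of members at 1 and 4 Hz, 19 held under every alternative that tested the gene, 15 were lost under at least 1, and 0 changed direction. Among the 19, Efnb3 at 1 Hz and Sema4g and Efna5 at 4 Hz fell under the filter of some alternatives and could not be tested there. The calls of Sema7a, Ephb2, Sema6a, Plxna2, Efnb2, Sema4c, Efnb1 and Ephb3 at 1 Hz and those of the first 6 at 4 Hz were among those that held. Leaving out 1 library gave 12 to 17 changed members at 1 Hz, 16 to 20 at 4 Hz, 0 at 10 Hz, 0 for 4 Hz against 1 Hz, 9 to 15 for 10 Hz against 1 Hz, and 14 to 17 for 10 Hz against 4 Hz. With no threshold on fold change, 19 members differed between 10 Hz and 1 Hz (12 with it). The apeglm estimate lowered the count at 1 Hz to 11. At 10 Hz against control, where none passed, the log2 fold change crossed 0 when 1 library was left out for Efna4 (-0.15 to 0.12), Ephb4 (-0.11 to 0.058), Nrp1 (-0.071 to 0.054), and Plxnb1 (-0.061 to 0.034); the cause was not tested.

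With the replicate block, 16 members changed at 1 Hz, 18 at 4 Hz, 0 at 10 Hz, 0 for 4 Hz against 1 Hz, 13 for 10 Hz against 1 Hz, and 16 for 10 Hz against 4 Hz. The numbers share no stated source: same-numbered libraries deviated together with r from -0.17 to 0.17. Of the stimulated libraries, only 4 Hz replicates 1 and 2 correlated best with the control of their own number. Depth limits the members at or under 1 TPM.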
